A study of Mus musculus with 24 samples.

Results

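The proteasome genes were described in alpha and beta cells of the mouse pancreatic islet over the day. They were taken as all rows of the deposited table whose gene symbol begins with Psm, one of the letters a to g, and a digit. This gave 48 of the 14027 genes. Of these, 46 encode subunits, activators, inhibitors or assembly factors of the proteasome, and the counts given here are over these 46. The other 2 matched by name only. Psmc3ip, whose product acts in meiotic recombination, had a mean of 0.99 RPKM in alpha libraries and 0.73 RPKM in beta libraries. Psme2b-ps is a pseudogene of Psme2 by its name, although the GENCODE annotation used here lists it as protein-coding. Psma8 and Psmb11 were not among the 48 rows taken, and so were not analysed here.

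RPKM is the number of reads per kilobase of gene, scaled to a library size set in the deposited values, which was not the total of reads. Total RNA was sequenced from alpha cells, the source of glucagon, and from the insulin-secreting beta cells. All cells came from one strain, named in the labels only as a triple reporter mouse, and no group had another genotype or treatment. Islet isolation took place at ZT0, ZT4, ZT8, ZT12, ZT16 and ZT20, where ZT (zeitgeber time) counts the hours of the light and dark cycle. Each cell type had 2 libraries at each time, so 12 alpha and 12 beta libraries were compared. The sources used here give neither the age of the animals nor whether paired libraries had separate donors. The p-values therefore rest on the spread among libraries alone, and this spread may be technical.

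The proteasome is the protease that breaks down proteins tagged with ubiquitin. Its barrel-shaped core is built of rings of alpha subunits (Psma genes) around rings of beta subunits (Psmb genes), and the subunits Psmb5, Psmb6 and Psmb7 cut the protein. A cap of ATPases (Psmc genes) and other subunits (Psmd genes) binds the ubiquitin tag, unfolds the protein and feeds it into the core. Interferon makes many cells exchange the cutting subunits for Psmb8, Psmb9 and Psmb10, which forms the immunoproteasome, and raises PA28 (Psme1 and Psme2), an activator that can take the place of the cap. Beta cells fold large amounts of proinsulin, and their handling of misfolded protein relies in part on the proteasome.

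The libraries held 4944982 to 12364190 reads, and the proteasome genes took 0.21% to 0.26% of the reads in alpha cells and 0.20% to 0.25% in beta cells. All 8 alpha cell marker genes tested were higher in the alpha libraries and all 8 beta cell markers were higher in the beta libraries. The alpha libraries also held more RNA of PP cell markers (3 of 3, with summed levels of 27826 to 59540 RPKM against 359 to 1730 RPKM in beta libraries) and delta cell markers (5 of 5, 2513 to 5180 RPKM against 645 to 1421 RPKM). The hormone genes that define these cells, Ppy and Sst, were detected in every library, at no less than 196 RPKM and 634 RPKM. Most of the delta cell sum was Sst, with 2326 to 4969 RPKM in alpha libraries and 634 to 1405 RPKM in beta libraries. The part of PP and delta cells in the differences described here was not tested. In bulk RNA, fewer cells of a type and less RNA per cell cannot be told apart. For the proteasome genes, replicate 1 of ZT0 was high and replicate 1 of ZT4 low in both cell types, and the calls are also given without these 4 libraries. Replicate 1 of alpha ZT16 and replicate 2 of beta ZT0 were low as well, and results without any single library are given where a call changed.

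Short stretches at the start of 3 interferon-inducible genes are shown because Psmb8 and Psme1 were higher in alpha cells and held a match to an interferon-linked motif, and because Psmb9 starts back to back with Tap1. The sequences are those of RefSeq on GRCm38.p6, read 5′ to 3′ along the strand of the gene. Positions are counted from the RefSeq start site, with 1 as the first transcribed base and -1 as the base before it. Capitals mark a match to TTCNNNGAA (the gamma-activated sequence) in Psmb8, to the interferon-stimulated response element (GAAA, any 2 bases, GAAA) on the other strand in Psme1, and to CCAAT on the other strand in Psmb9.
Psmb8, chr17:34198087-34198116, plus strand, positions -108 to -79: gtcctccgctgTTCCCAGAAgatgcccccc
Psme1, chr14:55578489-55578518, plus strand, positions -5 to 25: gtttcgagctgtgcTTTCGCTTTCccttcc
Psmb9, chr17:34187331-34187360, minus strand, positions -30 to -1: cctgcaccgcgcgcagccgctgATTGGaaa

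The GENCODE annotation has longer transcripts of all 3 genes that begin upstream of these RefSeq starts, so each stretch also lies in an annotated exon. The RefSeq starts of Psmb9 and of Tap1, a transporter that carries peptides into the endoplasmic reticulum, lie on opposite strands of chromosome 17 with 225 bases between them. In windows from 250 bases before to 50 after the start, searched on both strands, the match to TTCNNNGAA was found in 3 of the 39 proteasome genes with a RefSeq window, and in 9.55% of all 27025 genes. Besides Psmb8 these were Psmd2, higher in beta cells, and Psmg1, not called. The match to the interferon-stimulated response element was found in 5 of the 39 and in 3.99% of all genes. Besides Psme1 these were Psmd9 and Psmg4, higher in alpha cells, Psmd4, higher in beta cells, and Psmb3, not called. Each of these 2 motifs was found in 1 of the 5 interferon-inducible genes, and Psmb10 and Psme2 held neither. The match to CCAAT was found in 13 of the 39 and in 41.1% of all genes. TGACNNNGC, the core of the antioxidant response element through which the factor encoded by Nfe2l1 raises proteasome genes, was found in 6 of the 39 and in 13.99% of all genes. A match describes letters in a window and does not show that a factor binds there.

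Of the 27 genes called between the cell types 15 belonged to the cap, against 6 of 25 under quantile normalization. As deposited, its RNA was higher in beta cells for 15 of 17 subunits, while 11 of the 14 constitutive core subunits did not pass the test (5 under quantile normalization). Of the 5 interferon-inducible members 4 were higher in alpha cells, namely Psmb8, Psmb10, Psme1 and Psme2, and Psmb9 did not pass. The alternative activators Psme3 and Psme4 and the regulator Psmf1 were higher in beta cells. Over the 46 genes, 7 passed the test as higher in alpha and 20 as higher in beta cells (limma, with Benjamini-Hochberg adjustment over all 14027 genes, at an adjusted p under 0.05), and 19 did not pass. Of all genes, 74.9% passed, 37.8% as higher in alpha and 37.2% as higher in beta cells. Among the 7500 genes with a mean from 5 RPKM to the highest proteasome level, 31.2% were called in the first direction and 44.1% in the second. The direction was the same at all 6 times for 9 genes higher in alpha and 18 higher in beta cells, against 34.9% and 34% of all genes. Under quantile normalization, which forces all libraries to the same distribution of values, the split of the 46 turned to 15 higher in alpha and 10 higher in beta cells. Without replicate 1 of ZT0 and of ZT4 in both cell types, the split was 10 and 22.

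The differences were small for this pair of cell types. The median log2 difference, alpha minus beta, was -0.12 over the 46 genes and 0.01 over all genes. Over the 7500 genes with a mean from 5 RPKM to the highest proteasome level it was -0.08. The median size of the difference was 0.19 over the 46 genes against 0.42 over all genes. None of the 46 reached 2-fold, against 20.7% of all genes, and the greatest was 1.88-fold for Psme4. In 5 of the 46, 1 of them higher in alpha (11.9% of all genes) and 4 higher in beta cells (14.2%), no alpha library lay within the range of the beta libraries, as for 26% of all genes.

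**Figure D1:**
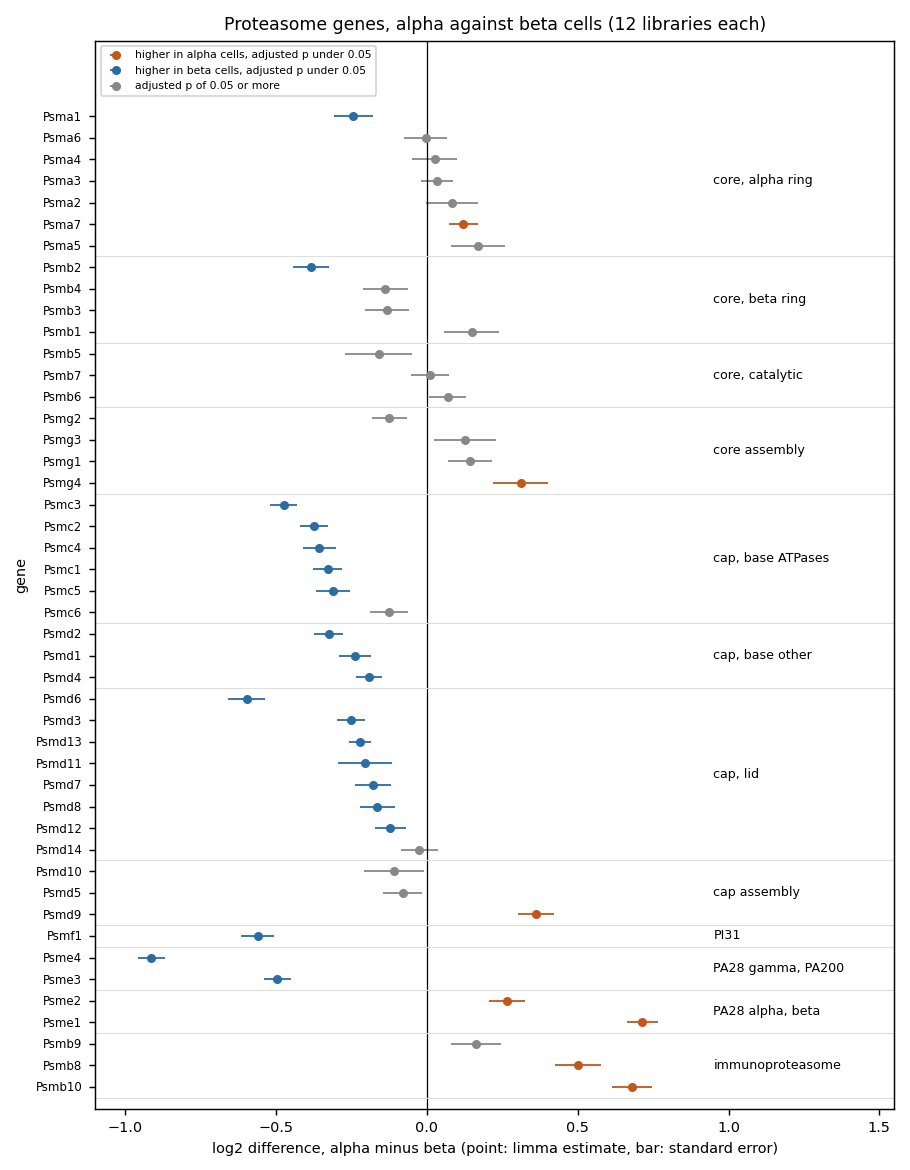
The horizontal axis gives the log2 difference of RNA between alpha and beta cells for each of 46 proteasome genes, listed by role on the vertical axis; points are limma estimates over 12 libraries of each cell type and bars are standard errors. With the values as deposited the 17 cap subunits all lie left of 0 (5 of them lie right of it under quantile normalization), the 14 core subunits scatter around 0, and the interferon-inducible genes at the bottom lie to the right.

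As deposited, 11 of the 14 core genes did not pass the test, and the largest difference among the 14 was 1.305-fold. Under quantile normalization 8 passed as higher in alpha and 1 as higher in beta cells. The alpha ring (Psma1 to Psma7) forms the gate through which proteins enter, and 5 of its 7 genes did not pass the test. Psma1 had 20.5, 26.9 and 30.6 RPKM in alpha libraries (lowest, median and highest of 12) and 24.7, 31.4 and 36.3 RPKM in beta libraries. Its libraries overlapped, and it was higher in beta cells by 0.24 ± 0.06 on the log2 scale (SE, adjusted p = 0.0017), although under quantile normalization the adjusted p was 0.472. Psma7 ran the other way, with 19.5, 23.2 and 28.0 RPKM in alpha libraries and 17.2, 21.9 and 27.0 RPKM in beta libraries. The difference was 0.12 ± 0.05 (adjusted p = 0.030), the libraries overlapped widely, and the call was lost on leaving out any of 7 single libraries, replicate 1 of alpha ZT0, alpha ZT12, beta ZT4, beta ZT8 or beta ZT12 and replicate 2 of alpha ZT4 or beta ZT0, with adjusted p from 0.0501 to 0.0617.

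The beta ring of the core has structural members (Psmb1 to Psmb4) and the cutting members. Of the structural ones only Psmb2 passed the test, with 24.4, 29.4 and 38.4 RPKM in alpha libraries and 34.1, 39.6 and 49.1 RPKM in beta libraries. It was higher in beta cells by 0.38 ± 0.06 on the log2 scale (adjusted p = 4.5e-06) at all 6 times, with overlap between the highest alpha and the lowest beta libraries.

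None of the 3 constitutive cutting subunits passed the test. Psmb5, the chymotrypsin-like subunit, had 13.7, 22.3 and 34.5 RPKM in alpha libraries and 20.2, 24.5 and 30.3 RPKM in beta libraries, a log2 difference of -0.16 ± 0.11 (adjusted p = 0.196). Both the lowest and the highest of these 24 values were alpha libraries, replicate 1 of ZT4 and replicate 1 of ZT0. Psmb6, the caspase-like subunit, had 31.2, 39.9 and 51.7 RPKM in alpha libraries and 32.5, 37.6 and 42.8 RPKM in beta libraries, a log2 difference of 0.07 ± 0.06 (adjusted p = 0.328). Psmb7, the trypsin-like subunit, had 29.1, 36.0 and 48.0 RPKM in alpha libraries and 29.7, 37.9 and 43.7 RPKM in beta libraries, a log2 difference of 0.01 ± 0.06 (adjusted p = 0.894). The ranges of the cell types overlapped nearly fully for all 3. Under quantile normalization Psmb6 and Psmb7 were higher in alpha cells, by 0.30 and 0.24 on the log2 scale, and 8 of the 14 core genes passed as higher in alpha and 1 as higher in beta cells.

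Assembly of the core is guided by the chaperones Psmg1 to Psmg4 and by Pomp, which is placed in the half-built ring and is its first substrate. Of the Psmg genes only Psmg4 passed, higher in alpha cells by 0.31 ± 0.09 on the log2 scale (adjusted p = 0.0038). It had 9.29, 13.7 and 17.6 RPKM in alpha libraries and 8.18, 10.4 and 14.4 RPKM in beta libraries, and was higher at all 6 times although the libraries overlapped. Pomp had a mean of 65.5 ± 9.7 RPKM (SD, n = 12) in alpha cells and 64.0 ± 9.6 RPKM (n = 12) in beta cells (adjusted p = 0.732), and was higher in alpha cells by 0.28 on the log2 scale under quantile normalization.

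The estimates of all 17 cap genes, in the ATPase ring, the rest of the base and the lid, were below 0 (lower in alpha cells), although 5 of them (Psmc6, Psmd7, Psmd8, Psmd12 and Psmd14) were above 0 under quantile normalization. In the values as deposited, 13 of the 17 genes were lower at all 6 times, and the median log2 difference was -0.24. Psmc6 and Psmd14 did not pass (adjusted p = 0.0801 and 0.729). The mean log2 RPKM over the 17 genes was 3.999 to 4.46 in the alpha libraries and 4.32 to 4.62 in the beta libraries. Leaving out any single library left 13 to 15 of the 17 called higher in beta cells. Under quantile normalization 6 of the 17 were, with a median log2 difference of -0.10, and none was higher in alpha cells.

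Within the cap, the base sits on the core. Its ring of 6 ATPases, which unfold the substrate, had 5 members higher in beta cells. Psmc3 had 5.83, 7.04 and 7.84 RPKM in alpha libraries and 8.31, 9.56 and 10.8 RPKM in beta libraries. Every beta library was above every alpha library, and the log2 difference was -0.47 ± 0.04 (adjusted p = 1.8e-09). Psmc2 had 9.12, 10.5 and 12.8 RPKM in alpha libraries and 11.96, 13.8 and 14.9 RPKM in beta libraries. Its difference was -0.37 ± 0.05 (adjusted p = 1.6e-07), with a slight overlap.

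The base also holds Psmd1 and Psmd2, large scaffold proteins that dock ubiquitin carriers, and Psmd4, a ubiquitin receptor. All 3 were higher in beta cells. Psmd2 had 35.0, 38.9 and 48.8 RPKM in alpha libraries and 44.0, 48.7 and 58.3 RPKM in beta libraries, and only the highest alpha library, replicate 1 of ZT0, lay within the beta range. Its difference was -0.33 ± 0.05 on the log2 scale (adjusted p = 2.4e-06). Psmd1 had 15.5, 17.5 and 21.9 RPKM in alpha libraries and 18.0, 20.3 and 24.7 RPKM in beta libraries, a difference of -0.24 ± 0.05 (adjusted p = 0.00038). Of the 9 base genes 8 passed as deposited and 3 under quantile normalization, where Psmd1, Psmd2, Psmd4, Psmc1 and Psmc5 no longer did.

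The lid surrounds the base and carries the enzyme Psmd14, which removes ubiquitin before the substrate enters. Of its 8 genes 7 were higher in beta cells. Psmd6, a scaffold subunit of the lid, showed the greatest cap difference, with 20.9, 23.5 and 32.2 RPKM in alpha libraries and 30.4, 36.7 and 43.1 RPKM in beta libraries. The log2 difference was -0.60 ± 0.06 (adjusted p = 8.9e-09), lower in alpha cells at all 6 times, and -0.39 under quantile normalization. Psmd3 had 10.2, 11.6 and 13.7 RPKM in alpha libraries and 12.2, 13.8 and 18.2 RPKM in beta libraries, a difference of -0.25 ± 0.05 (adjusted p = 3.2e-05). Psmd14 had means of 12.6 ± 1.5 RPKM (SD, n = 12) in alpha cells and 12.8 ± 1.5 RPKM (n = 12) in beta cells. The calls of Psmd11 and Psmd12 rested on adjusted p of 0.042 and 0.040. They were lost with the sign kept in 20 and 16 of the 33 alternatives, among them 16 and 14 of the 24 that each left out 1 library (adjusted p up to 0.0882 and 0.0813). Psmd12 also lost its call under quantile normalization, where its sign turned (log2 difference 0.016, limma adjusted p = 0.772).

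The cap genes were also compared with the core genes within each library, as a description. The mean log2 RPKM of the cap minus that of the core was -0.73 to -0.25 in alpha cells (mean -0.52) and -0.48 to -0.06 in beta cells (mean -0.29). The alpha value was the lower one at all 6 times, by 0.12 to 0.34 on the log2 scale. The ranges of the libraries overlapped.

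Assembly of the cap base is guided by the chaperones Psmd5, Psmd9 and Psmd10, which are not part of the finished cap. Psmd9 was higher in alpha cells, with 2.56, 2.97 and 3.71 RPKM against 1.99, 2.29 and 2.80 RPKM. The log2 difference was 0.36 ± 0.06 (adjusted p = 1.2e-05), opposite in sign to the 17 cap genes as deposited. Exons of another gene on the opposite strand cover 25.5% of the annotated exon bases of Psmd9, and the sources do not state whether counting used the strand. Psmd5 and Psmd10 did not pass (adjusted p = 0.274 and 0.322).

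The 3 immunoproteasome subunits had lower RPKM than the constitutive ones they replace, and Psmb8 and Psmb10 were higher in alpha cells. Psmb10, which replaces Psmb7, had 7.41, 12.1 and 14.4 RPKM in alpha libraries and 5.52, 7.14 and 8.95 RPKM in beta libraries. It was higher in alpha cells by 0.68 ± 0.07 on the log2 scale (adjusted p = 3.8e-09) at all 6 times. Replicate 1 of ZT4 and replicate 1 of ZT20 were the alpha libraries that fell within the beta range.

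Psmb8, which replaces Psmb5, had 2.99, 4.13 and 6.60 RPKM in alpha libraries and 2.27, 3.01 and 3.70 RPKM in beta libraries. The difference was 0.50 ± 0.08 (adjusted p = 4.2e-06), again higher at all 6 times, with overlap. Psmb9, which replaces Psmb6, had 1.22, 1.73 and 2.38 RPKM in alpha libraries and 1.12, 1.59 and 2.31 RPKM in beta libraries. Its difference of 0.16 ± 0.08 did not pass (adjusted p = 0.0824), and without replicate 2 of alpha ZT0 it was 0.20 (adjusted p = 0.0328). Psmb9 shares 212 bases of annotated exon with Tap1 on the opposite strand and Psmb8 shares 498 bases with a predicted gene, so reads there cannot be told apart unless counting used the strand.

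Each immunosubunit was set against the subunit it replaces within a library, so that shifts common to both genes cancel. Shifts that differ between the 2 genes do not cancel. Psmb5 and Psmb8 were counted over 871 and 3048 bases, and their ratio was 25.8% and 15.3% in replicates 1 and 2 of alpha ZT4. Exons of another gene also overlap 12.1% of the annotated exon bases of Psmb5 and 11.8% of those of Psmb7. Comparisons of level between genes depend on the gene lengths used for RPKM, while the comparison of the cell types does not. Psmb8 RNA was 14.9%, 19.5% and 28.9% of Psmb5 RNA in alpha cells (lowest, median and highest of 12) and 9.48%, 12.6% and 15.4% in beta cells. The ratio was 1.58-fold higher in alpha cells, at 6 of 6 times (exact two-sided permutation test within time points, p = 4.287e-05, the smallest it can give, and adjusted p = 6.43e-05 over 3 ratios).

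Psmb10 RNA was 22.2%, 30.8% and 41.5% of Psmb7 RNA in alpha libraries and 16.5%, 19.3% and 24.6% in beta libraries. It was 1.59-fold higher, at 6 of 6 times, with the same exact permutation p = 4.287e-05 and adjusted p = 6.43e-05. Psmb9 RNA was 3.19%, 4.41% and 5.996% of Psmb6 RNA in alpha libraries and 2.93%, 4.09% and 6.44% in beta libraries, higher in alpha cells at 4 of 6 times (exact permutation p = 0.262). On the log2 scale the ratio of Psmb9 differed between the cell types by 0.09 and those of Psmb8 and Psmb10 by 0.66 and 0.67, and whether these differences differ from each other was not tested.

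**Figure D2:**
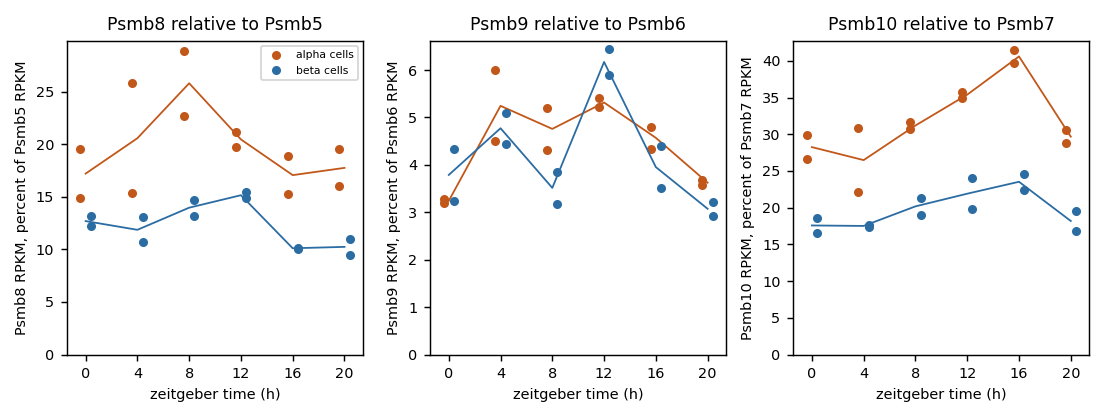
Each panel plots the RPKM of an immunoproteasome subunit as a percent of the RPKM of the constitutive subunit it replaces, against zeitgeber time in hours; points are libraries (2 per cell type and time) and lines join their means. Alpha libraries lie above beta libraries at every time for Psmb8 and Psmb10, and the cell types are mixed for Psmb9.

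Psme1 and Psme2 encode PA28 alpha and PA28 beta, which form one ring and are both raised by interferon. Psme1 had 14.5, 16.4 and 20.8 RPKM in alpha libraries and 8.503, 9.75 and 13.4 RPKM in beta libraries, with no overlap. Its log2 difference of 0.71 ± 0.05 (adjusted p = 2.5e-11) was the greatest among the 7 genes higher in alpha cells. Psme2 had 12.6, 13.8 and 16.2 RPKM in alpha libraries and 8.93, 11.2 and 15.0 RPKM in beta libraries, a difference of 0.27 ± 0.06 (adjusted p = 0.00039). Both were higher at all 6 times. Psme2b-ps had 19.7 ± 2.4 and 17.4 ± 1.8 RPKM (SD, n = 12 each). Reads of Psme2 and of Psme2b-ps may have been split between them, and their sequences were not compared here.

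Markers of cells that can carry immunoproteasomes were measured beside these genes. Of 16 immune cell markers 10 were in the table, with summed levels of 41.7 to 79.2 RPKM in alpha libraries and 36.9 to 77.9 RPKM in beta libraries. Most of these sums was C1qa, with 34.2 to 64.3 RPKM in alpha libraries and 28.4 to 51.4 RPKM in beta libraries. Ptprc, the common leukocyte antigen, was higher in alpha cells, with means of 0.35 and 0.18 RPKM, and was at 0 in at least 1 beta library. Csf1r, H2-Aa, H2-Eb1 and Lyz2 were higher in beta cells, and the other 5 did not pass. The 6 endothelial markers summed to 4.66 to 8.75 RPKM in alpha libraries and 2.63 to 4.93 RPKM in beta libraries, with 3 of the 6 higher in alpha cells. Esam was the most abundant, with 2.94 to 5.35 RPKM in alpha libraries and 1.84 to 2.96 RPKM in beta libraries. The 6 stromal markers summed to 4.30 to 9.14 RPKM and 0.52 to 1.65 RPKM, with 5 of the 6 higher in alpha cells and Col1a1 at 0 in at least 1 library of each cell type. The stromal markers differed unevenly, with a largest difference of 44.3-fold, that of Col1a2, and a median log2 difference of 1.04. Col1a2 had 3.41 to 5.35 RPKM in alpha libraries and 0.05 to 0.13 RPKM in beta libraries. Both measured duct cell markers were higher in alpha cells, with sums of 25.6 to 78.6 RPKM against 5.03 to 19.2 RPKM. Of these, Spp1 did not overlap between the cell types and Muc1 was at 0 in at least 1 beta library. Spp1 made up nearly all of the duct sums, with 24.9 to 78.4 RPKM in alpha libraries and 4.94 to 19.2 RPKM in beta libraries. Of 9 acinar cell markers 1 passed, higher in beta cells, and their sums overlapped widely (36.0 to 431.6 RPKM and 53.0 to 402.3 RPKM). The background for these marker counts is 37.8% of the whole table called toward alpha cells and 37.2% toward beta cells. A sum mostly follows its most abundant markers and is not a measure of cell number. The part of immune, endothelial, stromal, duct and acinar cells in the levels of Psmb8, Psmb10 and Psme1 was not tested.

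The activators that interferon does not raise had the opposite direction. Psme4 encodes PA200, a single-chain activator found in the nucleus, and had 10.02, 12.3 and 14.8 RPKM in alpha libraries and 18.1, 24.3 and 25.6 RPKM in beta libraries. All beta libraries were above all alpha libraries, and the log2 difference of -0.91 ± 0.04 (adjusted p = 1.2e-14) was the greatest of the 46 genes. Psme3, which encodes the nuclear PA28 gamma, had 12.4, 13.3 and 15.0 RPKM in alpha libraries and 16.04, 19.8 and 21.3 RPKM in beta libraries. It too had no overlap, with a difference of -0.50 ± 0.04 (adjusted p = 8.0e-10).

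Psmf1, which encodes PI31, a protein that binds the core and was first found as its inhibitor, had 4.96, 5.54 and 6.76 RPKM in alpha libraries and 7.31, 8.38 and 9.40 RPKM in beta libraries. The libraries did not overlap, and the difference was -0.56 ± 0.06 (adjusted p = 5.0e-09). Psme1, Psme3, Psme4, Psmf1 and Psmc3 were the 5 of the 46 proteasome genes without overlap, against 26% of all genes. Under quantile normalization the 3 genes Psme3, Psme4 and Psmf1 stayed higher in beta cells, and Psme1, Psme2, Psmb8 and Psmb10 stayed higher in alpha cells.

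Within a library, the balance of activators separated the cell types. The log2 level of Psme1 minus that of Psme4 was -0.01 to 0.74 in the alpha libraries and -1.54 to -0.63 in the beta libraries. No library of one cell type lay in the range of the other, which follows from the opposite directions of these genes.

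Genes that work with the proteasome but carry other names were described from 4 lists. The first held 21 measured proteins that bind it, build it or bring substrates to it, of which 12 were higher in beta cells and 3 in alpha cells (median log2 difference -0.18, and -0.02 with 9 and 6 under quantile normalization). All genes had 37.2% and 37.8% in these directions and a median of 0.01. The largest differences were those of Ube3c, a ubiquitin ligase bound to the cap, with 14.8 ± 0.7 RPKM in alpha libraries and 39.8 ± 4.4 RPKM in beta libraries (SD, n = 12 each; log2 difference -1.42), of Fbxo7, a partner of PI31 (-1.03), and of Txnl1, a thioredoxin on the cap (-0.77).

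The second list held factors that control transcription of proteasome genes and the proteins that process them, 13 entries for 12 genes because Mafg stood under 2 identifiers. Of the 13 entries 8 were higher in beta cells and 3 in alpha cells, against 37.2% and 37.8% of all genes. The median log2 difference was -0.38. Under quantile normalization the counts were 7 and 4, with a median of -0.28. Nfe2l1, the factor that raises proteasome genes when proteasome activity falls, had 28.5 ± 2.5 RPKM in alpha libraries and 53.2 ± 4.9 RPKM in beta libraries (SD, n = 12 each). It was higher in beta cells by 0.90 ± 0.05 on the log2 scale (adjusted p = 2.8e-14) without overlap. Bach1, a repressor at antioxidant response elements (-0.88), and Mafk, a small partner of these factors (-0.60), were also higher in beta cells. The protease Ddi2, which cuts the Nfe2l1 protein into its active form and belongs to the first list too, had a log2 difference of -0.56.

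Ubiquitin supply and the p97 segregase that extracts substrates made up the third list, with 4 of 15 genes higher in alpha cells and 7 higher in beta cells (median -0.11). The shares of all genes, 37.8% and 37.2%, were near these counts, which became 6 and 4 under quantile normalization. Rps27a, which encodes ubiquitin fused to a ribosomal protein, was higher in alpha cells by 0.81 on the log2 scale.

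The list of antigen processing and interferon response had 26 measured genes, 11 of them higher in alpha and 7 in beta cells (median 0.12, and 0.05 with 10 and 7 under quantile normalization). These counts too were near the 37.8% and 37.2% of all genes. Tap1 had 3.49 ± 0.23 RPKM in alpha libraries and 2.23 ± 0.18 RPKM in beta libraries (SD, n = 12 each), without overlap, a log2 difference of 0.64 ± 0.06 (adjusted p = 1.0e-09). Ifit1, an interferon-induced RNA-binding protein, and Ifnar2, a chain of the type I interferon receptor, were higher in alpha cells by 1.06 and 0.95. Jak1, a kinase of the interferon receptors, was higher in beta cells (-1.03). So was Ifit3, opposite in direction to Ifit1 (-0.72, and -1.21 under quantile normalization). B2m, the light chain of class I molecules, did not pass (-0.18 ± 0.10, adjusted p = 0.122; 0.05 under quantile normalization).

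No proteasome gene was called rhythmic. A 24 h cosine was fitted in each cell type with limma, and 0 of the 46 genes passed an adjusted p under 0.05 in alpha cells, against 9.66% of all genes. In beta cells 0 passed, against 16% of all genes. At an unadjusted p under 0.05 there were 9 of the 46 in alpha cells and 7 in beta cells, against 29.7% and 34.3% of all genes. The fitted swing from trough to peak had a median of 0.21 on the log2 scale in alpha cells and 0.19 in beta cells, against 0.35 and 0.38 over all genes.

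The counts of rhythmic genes moved with single libraries. So did those over all 14027 genes, from 348 to 2252 in alpha cells and from 1077 to 3100 in beta cells. In alpha cells 4 genes passed without replicate 1 of alpha ZT0 (Psmb8, Psmb9, Psmb10 and Psmd11) and 4 without replicate 1 of alpha ZT4 (Psmb8, Psmb9, Psmd10 and Psmf1). There were 2 without replicate 2 of beta ZT0 (Psmb9 and Psmd11), and 1 without replicate 2 of alpha ZT4, alpha ZT8, alpha ZT20, beta ZT4 or beta ZT8, or replicate 1 of beta ZT8 or beta ZT12 (Psmd11, Psmc4, Psmd11, Psme4, Psmb9, Psme4 and Psmb9). In beta cells 2 passed without replicate 1 of beta ZT0 (Psmb10 and Psme1). There was 1 without replicate 1 of alpha ZT4 or beta ZT8 or replicate 2 of alpha ZT4, beta ZT0 or beta ZT8 (Psmb10, Psme4, Psmd11, Psmd3 and Psmb9).

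Psmb9 had the lowest p in alpha cells, with a swing of 1.63-fold, a fitted peak at ZT9.6 ± 1.1 h (SE) and an adjusted p of 0.0543. Its 2 alpha libraries had 2.19 and 2.27 RPKM at ZT12 and 1.22 and 1.56 RPKM at ZT20. In beta cells ZT12 was also high, with 2.31 and 2.17 RPKM, and ZT20 low, with 1.17 and 1.12 RPKM (adjusted p = 0.148). Its lowest library had 38 reads of this gene.

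Psmd11, a lid subunit, was next in alpha cells (adjusted p = 0.0559) and had the lowest p in beta cells (adjusted p = 0.0882). Its alpha libraries had 7.12 and 5.81 RPKM at ZT16 and 3.42 and 3.13 RPKM at ZT8, and its beta libraries had 6.93 and 7.24 RPKM at ZT16 and 4.38 and 4.48 RPKM at ZT8. The fitted peaks were at ZT19.4 ± 1.1 h in alpha cells and ZT19.0 ± 1.3 h in beta cells, with swings of 1.72-fold and 1.57-fold, the greatest of the 46 genes in both. The 2 alpha libraries of ZT20 were apart, at 6.80 and 4.09 RPKM.

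Psme4 was the third by p in alpha cells, with a swing of 1.28-fold peaking at ZT18.1 ± 1.1 h (adjusted p = 0.0666). In beta cells Psmd2 (1.20-fold, ZT19.1 ± 1.3 h, adjusted p = 0.0954) and Psmb10 (1.38-fold, ZT11.5 ± 1.3 h, adjusted p = 0.0961) followed Psmd11. The fitted peak of Psmb10 in alpha cells was at ZT12.1 ± 1.4 h (adjusted p = 0.139). None of these passed in either cell type.

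**Figure D3:**
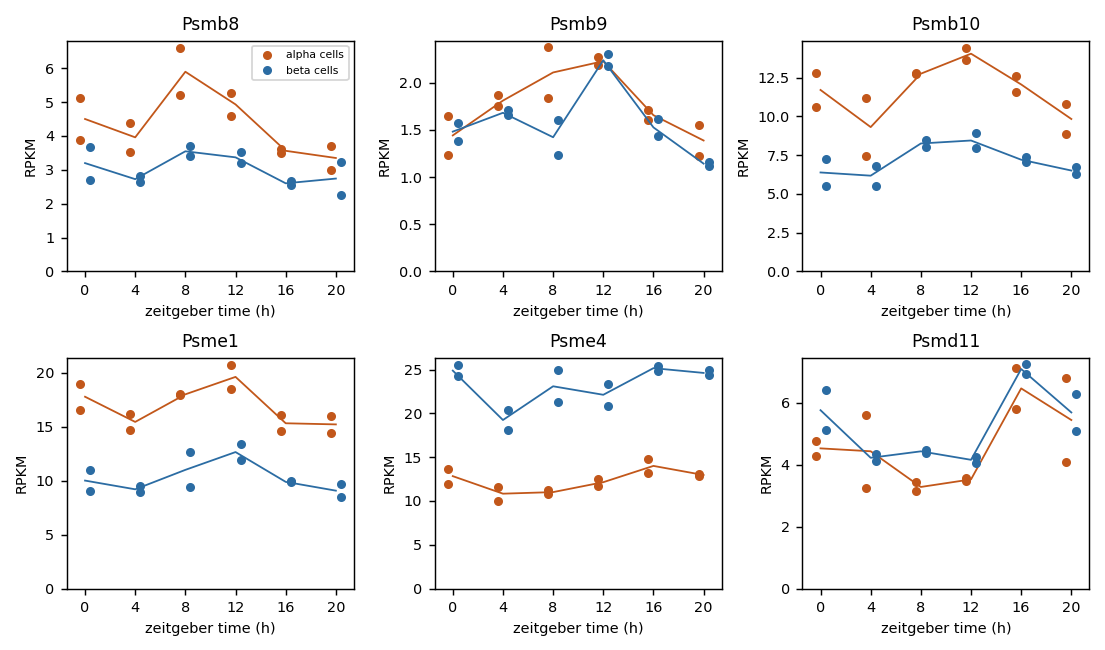
RPKM of 6 proteasome genes against zeitgeber time in hours; points are single libraries (2 per cell type and time) and lines join their means. Psme1 and Psme4 separate the cell types at every time in opposite directions, and Psmd11 is highest at ZT16 in both cell types.

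The rhythms of the cell types were also compared with each other. The test of a difference of rhythm called 0 of the 46 genes (limma), with 0 at an unadjusted p under 0.05, against 0.0713% and 7.66% of all genes. The lowest p among the 48 rows taken were those of the core chaperone Psmg3 (limma, adjusted p = 0.720), Psmd2 (adjusted p = 0.774) and Psme2b-ps (adjusted p = 0.892). Psmg3 had its fitted peak at ZT6.7 ± 2.0 h in alpha cells and ZT17.8 ± 2.4 h in beta cells. A miss of the threshold does not show that the rhythms are alike.

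The core genes moved together from library to library, and differed between libraries of one time. In replicate 1 of ZT0, 42 of the 46 genes were above the median of their cell type in alpha cells and 43 in beta cells, with all 14 core genes among them in both. In replicate 2 of ZT0 there were 14 and 7. In replicate 1 of ZT4 there were 3 in alpha cells and 5 in beta cells, with none of the 14 core genes, and in replicate 2 of ZT4 there were 19 and 22. None of the 14 core genes was above the median in replicate 1 of alpha ZT16, replicate 1 of alpha ZT20 or replicate 2 of beta ZT0 either. At ZT8 all 4 libraries were high, with 32 to 36 of the 46 genes.

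**Figure D4:**
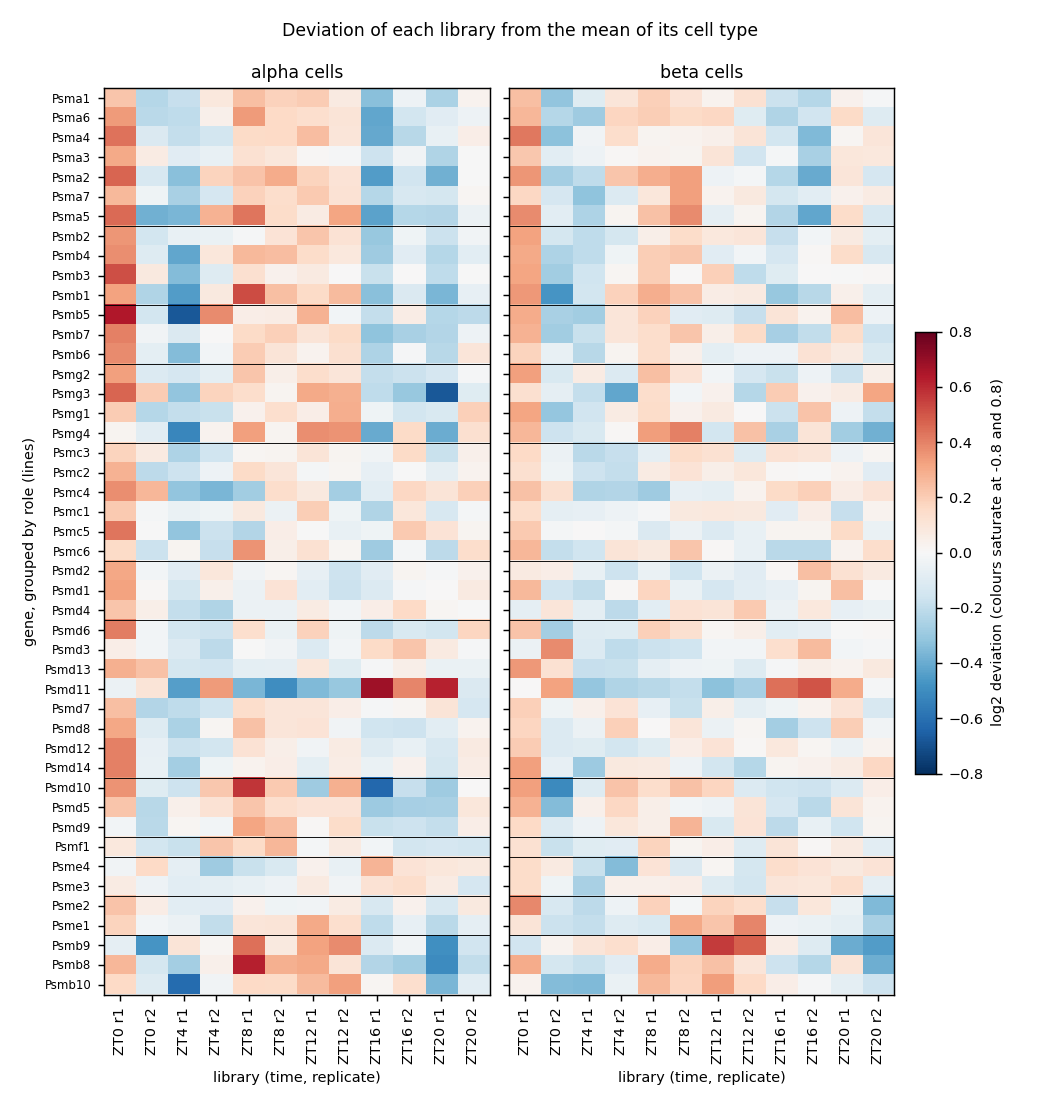
Each row is a proteasome gene and each column a library in order of time and replicate; colour is the log2 deviation from the mean of the 12 libraries of that cell type, saturating at -0.8 and 0.8. The first column of both panels (ZT0, replicate 1) is high for nearly all genes, and Psmd11 stands apart from the other lid genes at ZT16.

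The mean deviation of the 14 core genes from their cell type mean ran from -0.31 to 0.39 on the log2 scale in alpha cells and from -0.23 to 0.29 in beta cells. It had the same sign as that of 1098 other genes under 1500 bases in 22 of 24 libraries, and as that of 77 ribosomal protein genes in 22 of 24. For the 17 cap genes these counts were 13 of 24 for both. Genes of 3000 bases or more deviated by -0.05 to 0.07. The part of this shared movement in the fitted times of the core was not tested. Of the 14 core genes 13 had a fitted peak from ZT4 to ZT10 in alpha cells and 8 in beta cells, against 39.4% and 34.3% of all genes, and none of these fits passed the test.

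**Figure D5:**
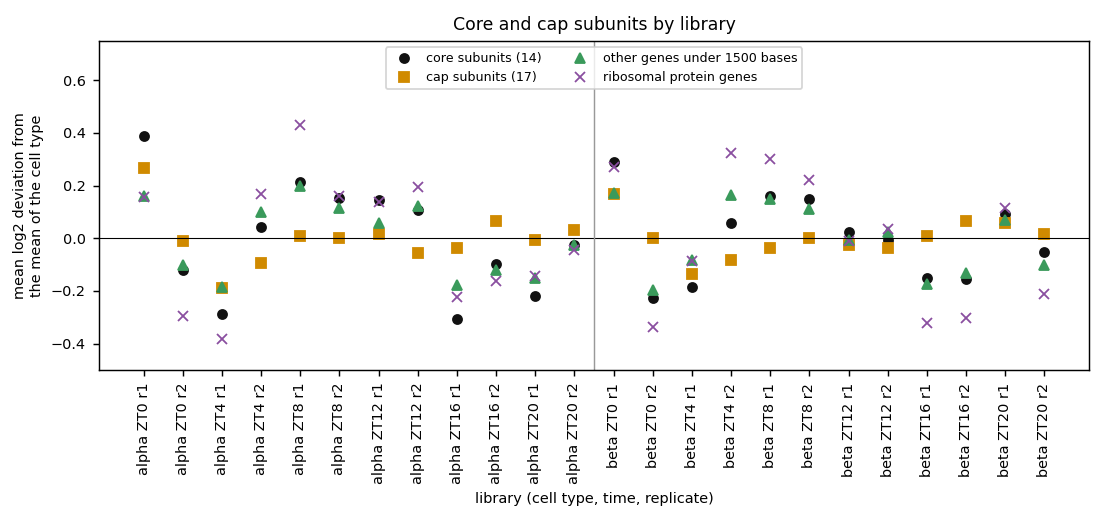
Mean log2 deviation from the cell type mean in each of 24 libraries, ordered by cell type, time and replicate, for the 14 core subunits, the 17 cap subunits, other genes under 1500 bases and ribosomal protein genes. The core follows the short and ribosomal protein genes in 22 of the 24 libraries, and the cap stays nearer to 0.

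Without replicate 1 of ZT0 and of ZT4 in both cell types, chosen after these counts were seen, 9 of the 46 genes were called rhythmic in alpha cells (Psma2, Psma5, Psmb1, Psmb4, Psmb8, Psmb9, Psmb10, Psmd10 and Psmf1). There were 4 in beta cells (Psma2, Psmb10, Psme1 and Psmg4). Over all 14027 genes, 2836 were called in alpha cells and 3145 in beta cells in this setting. With 1 library left at these 2 times, the lone library is assumed to vary like the others. The beta library kept at ZT0, replicate 2, had the lowest mean deviation of the core among the 12 beta libraries (-0.23 on the log2 scale). Between the cell types, each of Psmb8, Psmb10, Psme1, Psme3, Psme4 and Psmf1 kept its call in all 33 alternatives run.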

How the data were processed

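Libraries of total RNA depleted of ribosomal RNA were stranded, per the labels' protocols. STAR, edgeR and the build mm10 are named in the submitters' processing notes; annotation and strand setting are not stated. The values deposited by the authors are log2 RPKM with a mean prior count of 2.0, as their steps show, and gave whole reads for each of the 14027 genes and 24 libraries (largest deviation from a whole number 8.3e-08), with 0.774% of values at 0. RPKM is printed without the prior count, and log2 differences include it, which understates the change of low genes. The prior count of a library follows the size used for scaling, which was not its read total. It was 2.41 in replicate 2 of alpha ZT0 (10775718 reads) and 1.78 in replicate 2 of beta ZT4 (10724679 reads). Differences between the cell types depend on this scaling. The design assumed counts or normalized values, and the log2 values were tested as deposited.

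Cell types were compared with limma 3.58.1 in R 4.3.3 (trend, robust) with time as a factor, and rhythms as a 24 h cosine per cell type, over all 14027 genes. Immunosubunit ratios were tested by exact permutation within time points, 46656 assignments. Scripts were tested on simulated data. Roles, lists, markers and tests were chosen with earlier results of these data known. Named are Psmb5 to Psmb10, the 2 called genes with the largest difference per role, the 3 lowest p per rhythm test, and in each list the 3 largest called differences with Nfe2l1, Pomp, Tap1 and B2m, except some that are not reported here; other genes were named after their values were seen. Annotated exons of another gene overlap those of 13 of the 46 genes, 11 of them on the opposite strand. Positions are on GRCm38, which mm10 names.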

Additional observations from a re-analysis of the deposited data

How the results depend on the processing

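The 27 calls between cell types became 24 to 29 on leaving out single libraries and 24 to 34 under the other alternatives; the genes higher in alpha cells became 6 to 10 and those higher in beta cells 18 to 23 on leaving out single libraries. Of the 27, 16 kept their call in all 33 alternatives. Quantile normalization gave 15 higher in alpha and 10 higher in beta cells, with 8 calls gained and 10 lost, and turned the sign of 9 genes to above 0, Psmd12 (log2 difference 0.016), Psmb5 (0.0152), Psmd8 (0.0832), Psmd7 (0.0145), Psma6 (0.204), Psmb4 (0.102), Psmc6 (0.0952), Psmd14 (0.0844) and Psmd5 (0.0115); the cause was not tested. Psmb7, near 0, was -0.00845 without replicate 1 of ZT0 and ZT4 in both cell types and -0.0336 to 0.0359 on leaving out single libraries, with 4 of these below 0. The rhythmic genes in alpha cells, 0 as deposited, were 0 to 4 on leaving out single libraries, 1 with log2(RPKM + 1), with median centring and with no trend and no robust estimation, 5 under quantile normalization (Psmb9, Psmc4, Psmc5, Psmd11 and Psme4) and 9 without replicate 1 of ZT0 and ZT4 in both cell types. In beta cells they were 0 to 2, 1 under quantile normalization (Psmd2) and 4 without those 4 libraries. Over all 14027 genes, 1355 in alpha and 2241 in beta cells were called as deposited. These became 2096 and 2025 under quantile normalization, and 2836 and 3145 without those 4 libraries. No alternative called a difference of rhythm.

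With the same-numbered alpha and beta libraries of each time paired as a block, there were 10 calls in favour of alpha cells and 24 in favour of beta cells. None was lost and 7 were gained (Psma5, Psmb1, Psmb3, Psmb4, Psmc6, Psmg1 and Psmg2), so that 7 of the 14 core and 16 of the 17 cap genes passed. The numbers do not meet the rule for pairing: same-numbered alpha and beta libraries deviated together with correlations of 0.65, 0.42, 0.34, 0.10, 0.19 and 0.04 at ZT0 to ZT20, so the block is a hint from the data, not the design. The ratio differences were 0.61 to 0.70 for Psmb8 to Psmb5, 0.05 to 0.15 for Psmb9 to Psmb6 and 0.63 to 0.72 for Psmb10 to Psmb7 on leaving out single libraries. Depth limits Psmb9, with as few as 38 reads in a library, and Psmg3 and Psmg4, with as few as 42.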
